A study of Mus musculus with 12 samples.

Results

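Retinal mRNA of mice labelled Caspase1 knockout (Casp1 KO) was compared between oxygen-induced retinopathy (OIR) and normoxia. The comparison rests on 6 of the 12 libraries of the series, 3 labelled Casp1 KO OIR and 3 labelled Casp1 KO normoxia, chosen by their labels alone. The other 6 libraries are 3 of C57BL/6 WT mice in OIR and 3 of WT mice in normoxia, and they enter only where the change in Casp1 KO is set against that in WT. The OIR retinas were taken on day 3 after the oxygen exposure, when the retina is in relative hypoxia. The series compares C57BL/6 and Casp1 KO mice to ask how loss of caspase-1 bears on OIR. Per the study's methods, C57BL/6 pups were kept in 75% oxygen from postnatal day 7 to day 12 and retinas were collected at day 15, with pups kept in room air as controls. The oxygen and ages were not given separately for the Casp1 KO pups, and the knockout allele, the number of animals per library and their sex were not given in the sources used here, so that p-values measure the spread between libraries, which may be technical.

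In OIR, high oxygen stops and regresses growing retinal vessels, and the return to room air leaves the vessel-free inner retina short of oxygen. Oxygen-starved neurons and Müller glia, the radial support cells of the retina, stabilise hypoxia-inducible factors (HIF), which raise Vegfa and other angiogenic signals and the enzymes of glycolysis. Müller glia and astrocytes respond to such injury with a reactive programme that includes the intermediate filament Gfap, and vessels then sprout towards the vitreous. Caspase-1 is the protease of the inflammasome, which activates the cytokines IL-1β and IL-18.

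Library depth was 5528913, 3391203 and 4134162 reads in genes for Casp1 KO normoxia and 4502877, 4579192 and 4849329 for Casp1 KO OIR, so 3 reads, taken as the limit of detection, were worth 0.543 to 0.885 CPM (counts per 1000000 reads of the library) in the normoxia libraries. The 10 highest genes took 7.53% to 8.33% of the reads of each of the 12 libraries. Pearson correlation of log2 CPM was 0.965 to 0.9711 between libraries of the same Casp1 KO group and 0.9509 to 0.9592 between the groups, and no pair of these libraries agreed within sampling noise. Casp1 itself went against the labels. The libraries labelled Casp1 KO held 45, 14 and 10 Casp1 reads in normoxia and 22, 19 and 16 in OIR, while the 6 libraries labelled WT held 0 to 3. These are 3′ end reads, and since the deleted part of the gene was not given they cannot check the labels, so the libraries are called by their labels throughout. The tissue label held, with the rod arrestin Sag at 7794, 7864 and 8123 CPM in normoxia and 6773, 6733 and 6112 CPM in OIR. Lens and pigment epithelium transcripts were also present and were higher in OIR, as described with those lists.

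Of 13228 genes tested, 1050 (7.94%) changed between OIR and normoxia at an adjusted p under 0.05 (edgeR quasi-likelihood test, Benjamini-Hochberg over all genes tested, used for every adjusted p here). There were 552 higher genes (4.17%) and 498 lower genes (3.76%). Counts of called genes in the lists below compare with the 7.94% of all genes. Testing required about 10 reads in at least 3 libraries, so genes near 0 in 1 group could enter only as higher in the other. Among genes named below, Egln3, Myh11, C3, C4b, Serpina3n, Il1r1 and Hmox1 were tested in this way through the OIR libraries. The changes were mostly small, with a median absolute log2 fold change of 0.58 among the called genes, and 525 of them changed by less than 1.5-fold. A log2 fold change of at least 1 in either direction was reached by 228 called genes (1.72%), 144 higher and 84 lower. When all 12 libraries shared one estimate of the spread, 492 genes were called, and leaving out 1 library at a time gave 677 to 812. Without normoxia replicate 3 the count was 677 and without normoxia replicate 1 it was 696. CPM values were separate between the 3 OIR and the 3 normoxia libraries in 97% of the called genes, against 24.8% of all genes tested. The called genes were picked by a test on these same libraries, so the 97% follows in part from that choice. In whole retina, fewer cells of a type and less RNA per cell cannot be told apart.

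**Figure D1:**
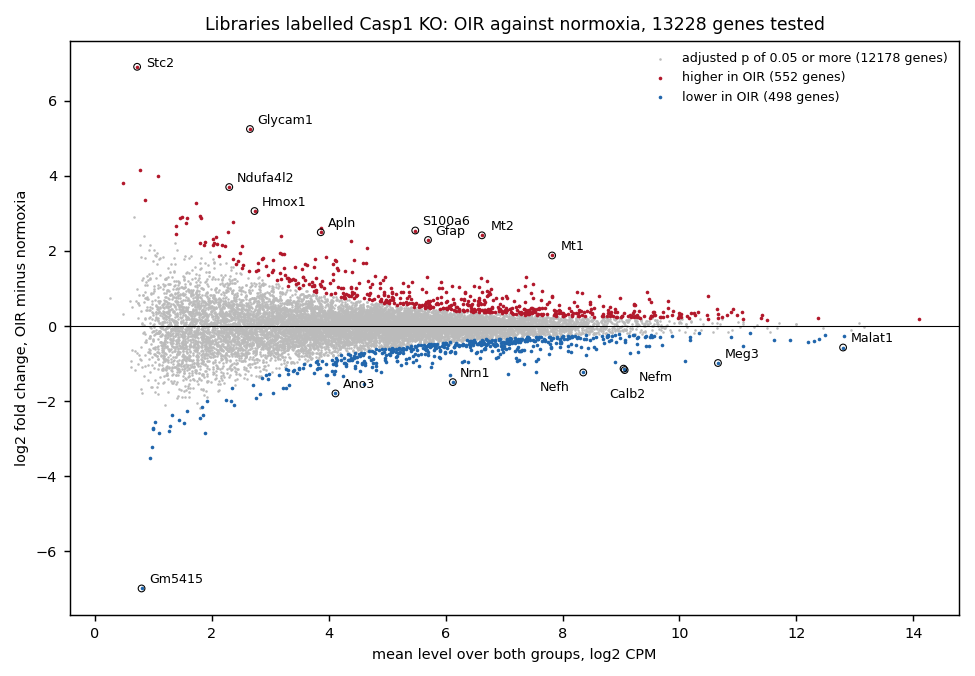
Log2 fold change (OIR minus normoxia, vertical) against mean level in log2 CPM (horizontal) for the 13228 genes tested in the 6 libraries labelled Casp1 KO. Red points are the 552 higher and blue points the 498 lower genes, grey points were not called, and circled genes are named in the text.

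The metallothioneins Mt1 and Mt2, small cysteine-rich proteins that bind zinc and copper, had the smallest p-values among the higher genes. Mt1 stood at 105, 91.1 and 93.5 CPM in normoxia and 338, 384 and 345 CPM in OIR. Every OIR library was above every normoxia library, and Mt1 rose 3.68-fold (log2 fold change 1.88 ± 0.09 SE, adjusted p = 9.46e-19). Mt2 went from 31, 27.6 and 34.2 CPM to 160.0, 177 and 160.4 CPM, a 5.33-fold rise (log2 fold change 2.42 ± 0.13, adjusted p = 4.11e-18). Mt3, the brain-enriched member, overlapped between the groups at 22.3, 15.9 and 9.4 CPM and 12, 11.4 and 13.4 CPM and was not called (log2 fold change -0.38 ± 0.30, adjusted p = 0.509). Mt2 (chr8:94172664-94173568) and Mt1 (chr8:94179082-94180327, both on the plus strand of GRCm38) are neighbours that moved together, so the 250 bases before their RefSeq starts are shown. Capitals mark matches to TGCNCNC, the core of the metal response element bound by the zinc sensor MTF1, on either strand.
Mt1, chr8:94178839-94179088, plus strand: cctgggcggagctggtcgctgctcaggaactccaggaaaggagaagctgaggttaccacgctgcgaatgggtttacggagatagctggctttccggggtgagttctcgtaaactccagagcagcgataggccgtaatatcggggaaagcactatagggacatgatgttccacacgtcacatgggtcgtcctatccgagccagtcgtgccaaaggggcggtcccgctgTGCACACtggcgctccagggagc
Mt2, chr8:94172368-94172617, plus strand: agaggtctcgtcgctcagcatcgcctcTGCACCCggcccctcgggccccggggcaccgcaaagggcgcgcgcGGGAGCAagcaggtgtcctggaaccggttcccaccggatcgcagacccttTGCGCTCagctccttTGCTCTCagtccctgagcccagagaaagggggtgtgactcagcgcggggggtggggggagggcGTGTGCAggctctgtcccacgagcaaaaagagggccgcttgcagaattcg
The Mt2 window held 5 matches that did not overlap and the Mt1 window held 1, as did the window of Mt3. At least 5 were found in 0.231% and at least 1 in 44.4% of 32851 RefSeq promoters of the same length. The windows end at the RefSeq start, and bases beyond it were not searched. The counts thus describe these windows and not all such elements of each gene.

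Beside the metallothioneins, the 12 higher genes with the smallest p-values at a log2 fold change of at least 1 whose groups did not overlap began with S100a6, Gfap and Vim. The calcium-binding protein S100a6 stood at 12, 15 and 12.5 CPM in normoxia and 64, 75.9 and 88.4 CPM in OIR, 5.83-fold higher (log2 fold change 2.54 ± 0.19, adjusted p = 9.23e-14). Gfap, the intermediate filament of astrocytes and reactive Müller glia, went from 22.7, 18.8 and 10.8 CPM to 82, 91.1 and 86.1 CPM (log2 fold change 2.29 ± 0.18, adjusted p = 1.57e-12). Its filament partner Vim went from 78.3, 104 and 104 CPM to 228, 219.7 and 259 CPM (log2 fold change 1.31 ± 0.11). The other genes of this set rose 2.08-fold to 4.79-fold. They were the tetraspanin Cd63 (log2 fold change 1.13), the lens crystallin Cryba1 (1.06), the MHC class I light chain B2m (1.21), Pbxip1 (1.29), the selenium-binding protein Selenbp1 (2.09), the acute phase factor Cebpd (2.26) and the glial transcription factor Sox9 (1.06).

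Among the higher genes of low level, Glycam1, a mucin-like protein, had 4, 0 and 0 reads in normoxia and 56, 62 and 53 in OIR. Ndufa4l2, a HIF target that lowers complex I activity, went from 0.907, 0.588 and 0.482 CPM to 11.3, 8.58 and 7.61 CPM (log2 fold change 3.7 ± 0.62, adjusted p = 4.02e-05). Stc2, a stress-induced glycoprotein, had no read in normoxia and 15, 13 and 18 reads in OIR, at least 4.61-fold higher against a limit of 3 reads per library (adjusted p = 0.00101). The unnamed gene Gm5415 had 23, 9 and 15 reads in normoxia and none in OIR, at least 5.37-fold lower (adjusted p = 6.34e-04). These 4 genes were chosen after their values were seen.

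The 12 lower genes with the smallest p-values at a log2 fold change of -1 or less were chosen in the same way. The neurofilament subunit Nefm stood at 779, 706 and 737 CPM in normoxia and 327, 337 and 321 CPM in OIR, 44.3% of the normoxia level (log2 fold change -1.17 ± 0.07, adjusted p = 5.20e-16). Nefh, the heavy subunit, went from 472, 465 and 441 CPM to 201, 208 and 176 CPM (log2 fold change -1.24 ± 0.08, adjusted p = 7.65e-15). Calb2 (calretinin), a calcium buffer of amacrine and ganglion cells, went from 664, 758 and 753 CPM to 336, 353 and 301 CPM (log2 fold change -1.14 ± 0.08, adjusted p = 8.41e-15). Cplx1, a complexin that clamps synaptic vesicle fusion, fell to 41.6% of normoxia, and the neurite growth factor Nrn1 to 35.5%. The nicotinic receptor subunit Chrna6 fell to 40.5%, and its partner Chrnb3, which was named after its values were seen, to 44.1%. The lowest ratio of the set was that of the anoctamin Ano3, at 28.8, 29.1 and 22.9 CPM in normoxia and 5.33, 8.36 and 9.46 CPM in OIR (28.8%, adjusted p = 7.41e-06). Cdr1 (42.8%), the kinetochore gene Spc25 (49.2%), the cell cycle arrest gene Rprm (34.2%), the adenosine receptor Adora1 (47.9%) and the ganglion cell RNA-binding protein Rbpms2 (46.7%) completed it. In the GENCODE annotation, exons of Mt2, Cebpd, Nefm, Nrn1, Cdr1, Ano3 and Adora1 overlap exons of a gene on the opposite strand (that of Nefm is the light subunit Nefl), and the strand setting of the counting was not given.

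**Figure D2:**
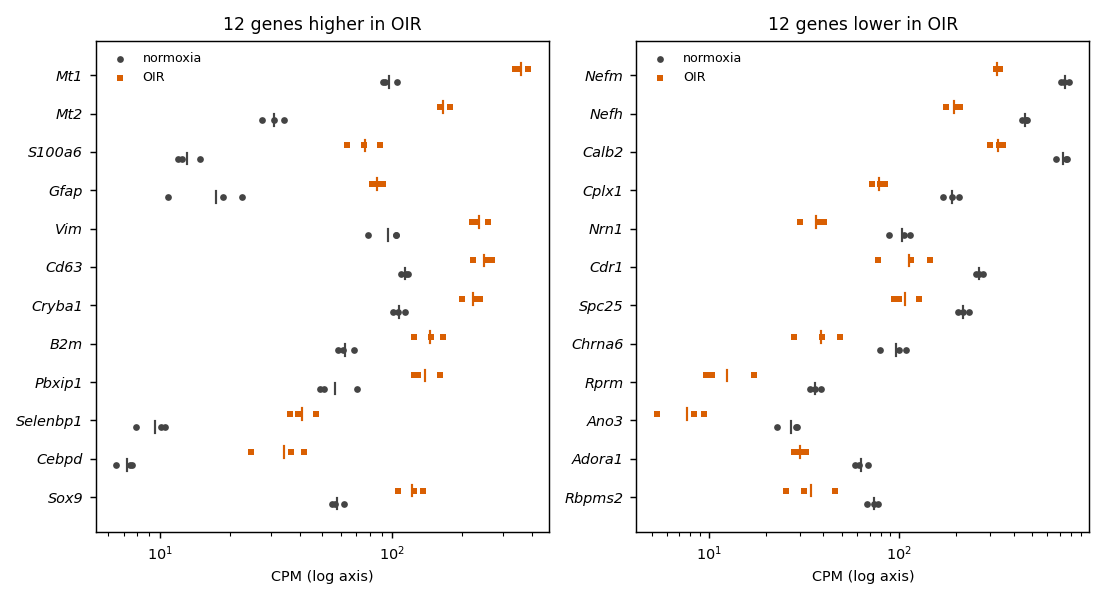
CPM on a log axis in each of the 6 libraries labelled Casp1 KO for the 12 higher (left) and 12 lower (right) genes that rank first by p among those that changed by 1 or more on the log2 scale. Circles are normoxia and squares OIR libraries (n = 3 each), short lines are group means, and genes were taken only where the groups did not overlap.

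Hypoxia response genes were higher as a group. Of 26 genes of the list, 24 were tested, 12 rose and none fell (50%, against 7.94% of all genes). The median log2 fold change was 0.43, against 0.0007 over all genes tested. Slc2a1, the glucose transporter of glia and vessels, went from 114, 121 and 137 CPM to 222, 229 and 231 CPM (log2 fold change 0.88 ± 0.10, adjusted p = 7.72e-09). Ddit4, an inhibitor of mTORC1, went from 207, 256 and 231 CPM to 362, 387 and 321 CPM (0.63 ± 0.09, adjusted p = 1.71e-06). The mitophagy receptors Bnip3 and Bnip3l rose by 0.44 and 0.38 on the log2 scale, the glycolytic regulator Pfkfb3 by 1.23 and the MAX partner Mxi1 by 0.48. Adm (adrenomedullin) was too low to be tested, at 0.544, 0.294 and 0.723 CPM in normoxia and 4.89, 1.98 and 5.35 CPM in OIR. The count was 7 with all 12 libraries in one fit and 7 to 11 with 1 library left out, and the summed level of the list was 2079 to 2187 CPM in normoxia and 2876 to 2930 CPM in OIR.

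Of the HIF pathway itself, 3 of 9 genes tested rose and none fell, a called share of 33.3% against 7.94% of all genes. The subunits Hif1a (615, 619 and 574 CPM in normoxia, 645, 588 and 673 CPM in OIR) and Epas1 (134, 123 and 128 CPM, 146, 148 and 121 CPM) overlapped between the groups and were not called. The prolyl hydroxylase Egln3, which marks HIF for degradation and is itself a HIF target, went from 1.27, 0 and 2.65 CPM to 6.45, 3.74 and 11.1 CPM (log2 fold change 2.37 ± 0.66, adjusted p = 0.0179). Egln1 rose by 0.42 and Vhl, the ubiquitin ligase subunit that recognises hydroxylated HIF, by 0.81 on the log2 scale. With all 12 libraries in one fit, 1 gene of this list was called.

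Of 21 glycolysis genes tested, 8 rose and none fell (38.1%, against 7.94% of all genes), with a median log2 fold change of 0.24. The lactate exporter Slc16a3 went from 60.7, 51.7 and 72.8 CPM to 116, 137 and 133 CPM (log2 fold change 1.05 ± 0.13, adjusted p = 7.51e-08). Pfkl, a phosphofructokinase, went from 176, 157 and 177 CPM to 236, 289 and 238 CPM (0.58 ± 0.09, adjusted p = 2.78e-05). The aldolase Aldoa went from 1364, 1308 and 1416 CPM to 1756, 2081 and 1715 CPM (0.44 ± 0.06, adjusted p = 3.56e-06). Ldha (lactate dehydrogenase, 0.35), Hk1 (hexokinase, 0.30), Gpi1 (0.27) and Pfkp (0.48) also rose. The count was 4 with all 12 libraries in one fit and 5 to 7 with 1 library left out. The promoters of the glucose importer and the lactate exporter are shown, as transporters at the start and the end of the pathway, with ACGTG and GCGTG, the core of the hypoxia response element, in capitals on either strand.
Slc2a1, chr4:119108495-119108744, plus strand: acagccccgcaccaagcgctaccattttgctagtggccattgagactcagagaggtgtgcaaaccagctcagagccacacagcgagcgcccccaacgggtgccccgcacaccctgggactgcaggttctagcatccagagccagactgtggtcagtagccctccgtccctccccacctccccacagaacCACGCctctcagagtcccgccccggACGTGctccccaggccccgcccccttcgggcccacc
Slc16a3, chr11:120948817-120949066, plus strand: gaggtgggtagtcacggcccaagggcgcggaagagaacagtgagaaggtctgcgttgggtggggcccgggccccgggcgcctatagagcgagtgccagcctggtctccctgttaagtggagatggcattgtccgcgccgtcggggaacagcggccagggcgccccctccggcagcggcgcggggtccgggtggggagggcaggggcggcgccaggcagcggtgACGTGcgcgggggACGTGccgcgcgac
Each window held 2 matches, and at least 2 were found in 13.5% of the 32851 promoters. Of other windows searched, that of Selenbp1 held 3, that of Stc2 held 2, that of Egln3 held 1 and that of Apln held 0, and of the 2 Vegfa windows one held 0 and the other 2. Of the 26 hypoxia response genes, 23 had a RefSeq promoter here, and the core was found in 10 of 10 called and 11 of 13 other genes, against 41.5% of 27025 genes. The list consists of known HIF targets, so this share is a description of the list.

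Angiogenic signals and vessel genes changed unevenly. Vegfa, the main growth factor of retinal vessels, went from 77.6, 68.5 and 68.7 CPM in normoxia to 146, 126 and 142 CPM in OIR, 1.92-fold higher (log2 fold change 0.94 ± 0.12, adjusted p = 1.15e-07). Apln (apelin), a peptide ligand made by endothelial tip cells, went from 6.16, 2.94 and 3.62 CPM to 26, 20.5 and 28.2 CPM (log2 fold change 2.5 ± 0.31, adjusted p = 1.52e-07). The VEGF receptor Flt1 rose from 28.1, 18.2 and 25.8 CPM to 42.9, 41.6 and 32.5 CPM (0.68 ± 0.20, adjusted p = 0.0244). The main signalling receptor Kdr was not called, and its 61.8, 68.7 and 77.8 CPM in normoxia overlapped with the 62.2, 79.2 and 64.4 CPM in OIR. Of 13 tested ligands and receptors of this list, 3 rose and none fell (23.1%, against 7.94% of all genes), and the median log2 fold change was -0.016. Of 13 tip cell genes tested, Apln, the small GTPase Rhoj and the collagen Col4a1 (log2 fold change 0.55) rose and none fell, also 23.1%. The adjusted p of Col4a1 was 0.0475. Its call was lost without any 1 of the normoxia libraries and without OIR replicate 2 or 3. Rhoj went from 43.9, 39.7 and 28 CPM to 87.4, 79.6 and 84.1 CPM (1.16 ± 0.16, adjusted p = 5.68e-07).

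General endothelial markers were mostly not called. Of 17 tested, Flt1 rose and Slco1a4, a transporter of the blood-retina barrier (-1.11), and Ly6c1 (-2.79) fell. The called share was 17.6%, against 7.94% of all genes. The adhesion molecule Pecam1 was not called, at 7.25, 10.9 and 14 CPM in normoxia and 9.34, 14.5 and 13.6 CPM in OIR. The same held for the tight junction protein Cldn5, at 23.4, 16.2 and 15.9 CPM and 23.8, 22.9 and 19.5 CPM, and for the cadherin Cdh5, at 4.17, 1.18 and 1.69 CPM and 4.0, 3.52 and 3.91 CPM. The 3 endothelial calls were lost with all 12 libraries in one fit. Of 11 pericyte and smooth muscle genes tested, 4 rose and none fell (36.4%, against 7.94% of all genes). Acta2, smooth muscle actin, went from 3.63, 4.41 and 3.62 CPM to 17.6, 17.4 and 8.84 CPM (1.91 ± 0.38, adjusted p = 5.83e-04). Myh11 (2.73), Myl9 (1.46, adjusted p = 0.0494) and the myosin kinase Mylk (0.40) were the others. With all 12 libraries in one fit, the calls of Myh11 and Myl9 were lost. Mylk stood at 542, 516 and 581 CPM in normoxia and made up most of the list's summed level of 660.1 to 739.2 CPM. Which cells gave its reads was not tested. Of 18 matrix genes tested, 3 rose and none fell, a called share of 16.7% against 7.94% of all genes. The matricellular protein Sparc went from 1097, 977 and 1065 CPM to 1769.7, 1932 and 1778 CPM (0.80 ± 0.06, adjusted p = 5.69e-13). Fibronectin Fn1 rose by 0.84 on the log2 scale, Col4a1 was the third, and 1 of these calls held with all 12 libraries in one fit. None of 6 tested Norrin and Wnt vascular genes was called, with Axin2 at 0.01 and Nkd1 at -0.09 on the log2 scale, where 7.94% of all genes were.

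Müller glia reactivity genes were higher. All 18 tested of 25 reactivity genes had a positive log2 fold change, with a median of 1.49. Of these, 14 were called (77.8%, against 7.94% of all genes), 11 with all 12 libraries in one fit and 12 to 15 with 1 library left out. Genes with few normoxia reads, such as Serpina3n (6, 2 and 9), passed the filter only through OIR and could not have entered as lower. The summed level of the list went from 362.4 to 388.1 CPM in normoxia to 901.7 to 963.0 CPM in OIR. Stat3, the transcription factor of the gp130 injury response, went from 59.8, 83.1 and 80.3 CPM to 139, 135 and 142 CPM (log2 fold change 0.91 ± 0.12, adjusted p = 6.31e-07). Its feedback inhibitor Socs3 went from 3.81, 3.23 and 2.65 CPM to 8.45, 7.04 and 18.7 CPM (1.8 ± 0.44, adjusted p = 0.0059). These were the 2 called of 9 tested genes of the STAT3 list (22.2%), neither being lower. The protease inhibitor Serpina3n went from 1.09, 0.588 and 2.17 CPM to 7.78, 9.9 and 9.25 CPM (2.77 ± 0.56). S100a11 (2.62), A2m (1.43), Bcl3 (2.88), Ctgf (1.56), Anxa2 (1.11) and the copper oxidase Cp (0.75) also rose. Edn2, a photoreceptor stress signal to Müller glia, was too low to be tested, at 0, 0.588 and 0.241 CPM in normoxia and 0.222, 6.82 and 4.93 CPM in OIR, with the first OIR library at the normoxia level.

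Of 17 tested genes of Müller glia homeostasis, 11 rose and Abca8a fell (-0.60), a called share of 70.6% against 7.94% of all genes. The median log2 fold change was 0.43. Apoe, the lipid carrier, went from 480.3, 486 and 487 CPM to 860.2, 1041 and 827 CPM (0.91 ± 0.07, adjusted p = 3.16e-12). The chaperone Clu went from 383, 397 and 359 CPM to 609.9, 650.4 and 642 CPM (0.74 ± 0.07, adjusted p = 5.42e-10). Glul, the glutamine synthetase that clears glutamate, rose less, from 728, 864 and 867 CPM to 1109, 1074 and 1051 CPM (0.40 ± 0.07, adjusted p = 7.25e-05), as did Rlbp1, the retinal carrier of the visual cycle (0.27 ± 0.08). The glutamate transporter Slc1a3 rose by 0.44, and Car14 (0.90), Crym (0.81), Rdh10 (0.50) and Dkk3 (0.43) were the others beside Vim and Sox9. Of 9 astrocyte genes tested, Gfap, Sox9, Slc1a3 and the gap junction gene Gja1 (1.15 ± 0.18) rose and S100b fell (-0.51), a called share of 55.6%. Of these called genes, 3 are also in the Müller lists.

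Complement genes were higher. Of 8 tested, 6 rose and none fell (75%, against 7.94% of all genes), with a median log2 fold change of 1.60. The C1q chain C1qa, which microglia make, went from 8.52, 4.99 and 10.6 CPM to 20.4, 31.7 and 24.3 CPM (1.64 ± 0.28, adjusted p = 6.66e-05). The chains C1qb (1.55) and C1qc (1.37), C4b (2.88) and the inhibitor Serping1 (1.91) also rose. C3, the central component, rose from 0.544, 0.294 and 0 CPM to 4.67, 2.86 and 2.47 CPM. In normoxia C3 had 3, 1 and 0 reads and C4b 5, 0 and 6. Both passed the filter through the OIR libraries and could not have been tested as lower. Of 14 microglia and macrophage genes tested, the C1q chains and Gpnmb (1.01) were higher and none was lower, a called share of 28.6%. The defining microglial receptors were not called, with Cx3cr1 at 12, 22.6 and 19.3 CPM in normoxia and 29.3, 30.4 and 23.6 CPM in OIR (adjusted p = 0.0858). P2ry12 stood at 2.54, 6.17 and 5.3 CPM and 2.22, 0.88 and 6.37 CPM. Of 15 interferon response and MHC class I genes tested, 5 rose and none fell (33.3%, against 7.94% of all genes). B2m went from 58.7, 61.4 and 68.2 CPM to 124, 165 and 146 CPM. The antiviral membrane protein Ifitm3 went from 7.98, 10.3 and 5.54 CPM to 28, 24.6 and 26.9 CPM (1.75 ± 0.27, adjusted p = 1.07e-05). The heavy chains H2-K1 (2.4) and H2-D1 (0.82), whose near-identical sequences can share reads, and the immunoproteasome subunit Psmb8 (2.22) were the others.

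Inflammasome, chemokine and neutrophil genes mostly had few reads or were not called. Of 6 tested inflammasome genes, the IL-1 receptor Il1r1 rose (0.907, 1.18 and 2.89 CPM to 5.78, 9.9 and 6.58 CPM, 2.16 ± 0.59, adjusted p = 0.0148) and none fell. The called share of this list was 16.7%, against 7.94% of all genes. The caspase-1 substrate Il18 overlapped between the groups, at 15.4, 16.7 and 6.99 CPM and 12.9, 9.02 and 14.8 CPM. Casp1 itself also overlapped, at 8.16, 4.11 and 2.41 CPM and 4.89, 4.18 and 3.29 CPM. Of 10 tested chemokine and adhesion genes none was called, against 7.94% of all genes, with Cx3cl1 at 40.4, 59.3 and 35.2 CPM and 28.4, 34.8 and 26.3 CPM (adjusted p = 0.0515). No neutrophil gene passed the filter, and S100a8 and S100a9 had no read in normoxia. In the OIR libraries S100a8 stood at 0.889, 0 and 0.206 CPM and S100a9 at 0, 0 and 0.822 CPM.
Of 14 genes listed for proteins in the study's assays, Vegfa, Junb, Jun (0.59 ± 0.14, adjusted p = 0.00356) and the NF-κB inhibitor Nfkbia rose. Junb, a subunit of AP-1, went from 10.5, 8.81 and 14.7 CPM to 29.6, 37.6 and 42.8 CPM (1.69 ± 0.24, adjusted p = 1.51e-06). Nfkbia went from 73.4, 92.8 and 94.2 CPM to 133, 148 and 153 CPM (0.74 ± 0.12, adjusted p = 1.30e-05). Vcam1, Il33, Rela, Nfkb1 and Fos were not called. The adhesion molecule Vcam1 stood at 15, 12.6 and 15.9 CPM in normoxia and 13.6, 10.1 and 17.7 CPM in OIR. The cytokine Il33 stood at 22.3, 23.5 and 21.7 CPM and 28.7, 26 and 24.1 CPM. The NF-κB subunit Rela stood at 19.4, 12.6 and 19 CPM and 24.7, 25.5 and 23.6 CPM. The chemokine Cxcl1 had no read in any of the 6 libraries, which allows up to 0.543 to 0.885 CPM in each normoxia library, Cxcl2 and Cxcl5 had reads in 1 OIR library each, Icam1 had reads in the OIR libraries only (1.78, 1.1 and 0.617 CPM) and Sele in 1 of them.

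Retinal ganglion cell genes were lower. Of 19 tested, 11 fell and none rose (57.9%, against 7.94% of all genes), 18 had a negative log2 fold change, and the median was -0.67. The summed level of the list was 4495 to 4739 CPM in normoxia and 2537 to 2638 CPM in OIR. Beside Nefm and Nefh, the light subunit Nefl stood at 1484, 1462 and 1369 CPM in normoxia and 786, 746 and 723 CPM in OIR (log2 fold change -0.94 ± 0.06, adjusted p = 9.96e-15). The synuclein Sncg went from 222, 169 and 205 CPM to 85.1, 123 and 109 CPM (-0.91 ± 0.11, adjusted p = 1.68e-07). The vesicular glutamate transporter Slc17a6, which loads the ganglion cells' transmitter, went from 198, 194 and 177 CPM to 101, 89.7 and 122 CPM (-0.86 ± 0.11, adjusted p = 1.52e-07). The groups did not overlap for these genes. The surface protein Thy1 went from 196, 199 and 172 CPM to 109, 136 and 112 CPM (-0.67 ± 0.10, adjusted p = 1.17e-05). With all 12 libraries in one fit 10 of the list were called, and with 1 library left out 9 to 11. Isl2 (-1.12), Gap43 (-0.92), Stmn2 (-0.75) and Tubb3 (-0.39) also fell. Of the identity genes, Rbpms was not called, at 111, 117 and 99.1 CPM in normoxia and 86.5, 105 and 99.1 CPM in OIR (adjusted p = 0.438). The transcription factor Pou4f1 was not called either, at 140.3, 144 and 159 CPM and 112, 125 and 123 CPM (adjusted p = 0.0679).

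Among other inner retinal lists, 23.8% of the amacrine, 10% of the bipolar, 30% of the horizontal cell and 20% of the synaptic release genes tested were called, against 7.94% of all genes. Of 21 genes of the amacrine list, Drd4, a dopamine receptor that photoreceptors express (661, 723 and 709.8 CPM to 1084, 1131 and 1078 CPM, 0.65 ± 0.07, adjusted p = 7.15e-10), Npy (0.70) and Prox1 (0.49) rose and Calb2 and the peptide Cartpt (-0.52) fell. Of 20 bipolar genes tested, Lhx4 (0.63) and Otx2 (0.23) rose and none fell. Of 10 horizontal cell genes tested, Prox1 and Ndrg1 rose and the calcium buffer Calb1 fell (72.9, 69 and 81 CPM to 41.3, 58.5 and 52 CPM, -0.55 ± 0.15). Of 20 genes of synaptic release, Cplx1 and the synapsins Syn2 and Syn1 (-0.66) fell and the photoreceptor and bipolar glutamate transporter Slc17a7 rose (0.38). Syn2 went from 103, 116 and 113 CPM to 63.8, 49.5 and 56.3 CPM (-0.96 ± 0.13, adjusted p = 6.59e-07). The fusion protein Snap25 was not called, at 523, 578 and 569.7 CPM and 518, 501 and 558 CPM.

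Photoreceptor genes moved by small amounts in both directions. Of 25 rod genes tested, 7 rose and 4 fell (44%, against 7.94% of all genes), with a median log2 fold change of 0.07. With all 12 libraries in one fit 3 were called, Sag not among them. The rod transcription factor Nrl went from 1939, 1749 and 1890.0 CPM to 2382, 2425 and 2470.0 CPM (0.38 ± 0.06, adjusted p = 4.03e-06). The arrestin Sag fell from 7794, 7864 and 8123 CPM to 6773, 6733 and 6112 CPM (-0.28 ± 0.05, adjusted p = 4.65e-05). Rpgrip1, a protein of the connecting cilium, fell from 804, 753 and 751 CPM to 524, 479 and 427 CPM (-0.69 ± 0.07, adjusted p = 3.61e-09). Of 14 cone genes, Opn1sw, Gnb3 (0.32) and Pde6h (0.23) rose and Arr3 fell, a called share of 28.6%. The short-wave opsin Opn1sw went from 315, 289 and 334 CPM to 476, 429 and 400.1 CPM (0.47 ± 0.08). Cone arrestin Arr3 went from 173, 184 and 182 CPM to 116, 113 and 126 CPM (-0.60 ± 0.10, adjusted p = 3.58e-05).

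**Figure D3:**
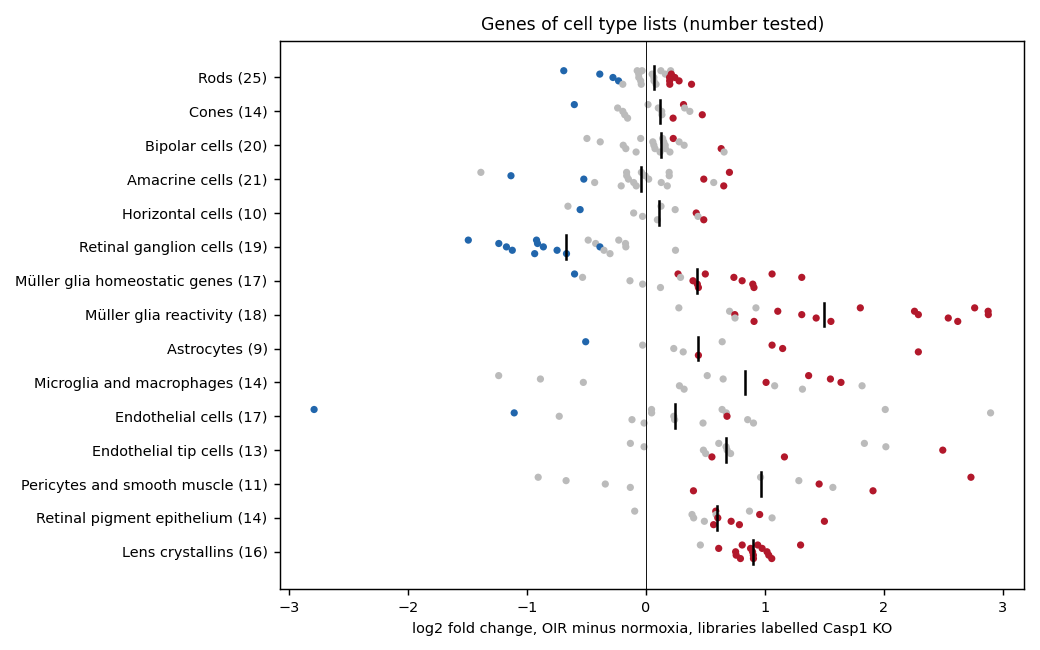
Log2 fold change (OIR minus normoxia, libraries labelled Casp1 KO) of each tested gene in 15 cell type lists, with the number tested in brackets. Red genes rose, blue genes fell, grey genes were not called, and the black bar is the list's median, which is -0.67 for retinal ganglion cells and 1.49 for Müller glia reactivity.

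Stress and signalling lists showed a rise in part of their members. Of 17 immediate early genes tested, 6 rose and none fell (35.3%, against 7.94% of all genes). Egr1 went from 60.7, 60.5 and 46.3 CPM to 100.2, 108 and 106 CPM (0.91 ± 0.13, adjusted p = 3.48e-06). The others were Junb, Jun, Jund (0.53), Ier3 (0.63) and Nr4a1 (1.06). Fos varied within the groups, at 21.9, 9.99 and 26.8 CPM in normoxia and 26.4, 22.7 and 42.8 CPM in OIR. Of 18 genes of ATF4 and the unfolded protein response, 5 rose and none fell (27.8%, against 7.94% of all genes). Slc7a5 (1.24), Trib3 (1.26) and Atf4 itself (0.26) were among them. Slc3a2, which pairs with Slc7a5 as an amino acid transporter, went from 111, 135 and 141 CPM to 202, 213 and 181 CPM (0.63 ± 0.10, adjusted p = 2.77e-05). With all 12 libraries in one fit, 1 of this list was called. Of 19 NRF2 antioxidant genes, the heme oxygenase Hmox1 rose (1.45, 2.35 and 0.482 CPM to 12, 13.9 and 9.66 CPM, 3.06 ± 0.51, adjusted p = 3.58e-05) and none fell, with Prdx1 and Sod1 at 0.14 and -0.02. The called share, 5.26%, was below the 7.94% of all genes. Of 15 heat shock genes, Hspa1a rose (0.62) and Hsp90aa1 (-0.19) and Chordc1 (-0.54) fell, a called share of 20%. These calls were lost with all 12 libraries in one fit. Of 12 IGF system genes, the receptor Igf1r (0.37), Irs2 (0.61) and Igfbp2 (0.90) rose and none fell (25%, against 7.94% of all genes). Of the 4 NDRG genes, Ndrg1 (0.42) and Ndrg2 (0.39) rose and Ndrg4 fell (-0.69). Of 19 dopamine and clock genes tested, Drd4, Tef (0.31) and Bhlhe40 (1.1) rose and Clock fell (-0.33), a called share of 21.1%. Of these, Drd4 remained with all 12 libraries in one fit.

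Cholesterol synthesis genes leaned lower. Of 24 cholesterol synthesis genes tested, 5 fell and 1 rose (25%), 21 had a negative log2 fold change, and the median was -0.32. Hmgcs1, which commits carbon to the mevalonate pathway, went from 223, 229.7 and 193 CPM to 135, 135 and 139 CPM (-0.66 ± 0.10, adjusted p = 3.87e-06). Fdps (-0.57), Lss (-0.74) and Msmo1 (-0.51) also fell and Pmvk rose (0.77), and 3 of the list were called with all 12 libraries in one fit. Of 11 fatty acid synthesis genes, Elovl6 fell (-0.60) and none rose, with Acly at -0.01, a called share of 9.09% against 7.94% of all genes.

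Long noncoding and nuclear-retained RNAs were lower in 6 of 18 tested and higher in none, a called share of 33.3% against 7.94% of all genes. The median log2 fold change was -0.39, and the summed level was 12500 to 13500 CPM in normoxia and 8278 to 9042 CPM in OIR. Malat1 went from 9036, 8434 and 8106 CPM to 6029, 5267 and 5898 CPM (-0.57 ± 0.05, adjusted p = 1.71e-11). The imprinted RNA Meg3 went from 2209.8, 2080.5 and 2155 CPM to 1117, 1118 and 1020.2 CPM (-0.99 ± 0.06, adjusted p = 3.47e-16). Kcnq1ot1, the antisense RNA of an imprinted domain, fell from 248, 235 and 252 CPM to 127, 121 and 134 CPM (-0.94 ± 0.09, adjusted p = 5.88e-10), and its exons overlap Kcnq1 on the other strand. Snhg11 (-0.70), Snhg14 (-0.53) and Six3os1 (-0.50) also fell. Of 24 CLK kinase and splicing factor genes tested, 6 fell, including Clk1 (167, 153 and 156 CPM to 93.8, 118 and 99.1 CPM, -0.62 ± 0.11), Luc7l3 (-0.52) and Pnisr (-0.56). The cold-inducible RNA-binding protein Cirbp rose, from 227, 217 and 236 CPM to 425, 428 and 403 CPM (0.88 ± 0.08, adjusted p = 5.33e-11). The called share of this list was 29.2%. With all 12 libraries in one fit, 3 of its genes were called, without Clk1 and Luc7l3. Genes of both lists varied within the WT OIR group, with Meg3 at 2142, 2215 and 764 CPM and Malat1 at 9281, 10448 and 4908 CPM. Luc7l3 stood at 1376, 1366 and 566 CPM there. Replicates within each Casp1 KO group lay closer together for these genes, and what makes them vary within a group was not tested.

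Respiratory chain subunits fell in 14 and rose in 2 of 78 tested, a called share of 20.5% against 7.94% of all genes. The median log2 fold change was -0.13. Cox7b went from 185, 172 and 179.8 CPM to 128, 92.4 and 118 CPM (-0.67 ± 0.11, adjusted p = 2.44e-05). Cox7a2 (-0.38), Atp5f1 (-0.42) and Ndufs4 (-0.47) were among the others, while Uqcrc1 (0.43) and Sdha (0.30) rose. Of 81 ribosomal protein genes, 7 fell and 2 rose, among them Rps29 (-0.30), Rpl23a (-0.28) and Rps9 (0.39), and reads of their pseudogenes can be shared with them. With all 12 libraries in one fit, 5 respiratory chain and 1 ribosomal protein gene were called. The called share of ribosomal protein genes, 11.1%, was near the 7.94% of all genes. Of 9 tested histone genes Hist1h2bc rose (0.42) and none fell. Of 13 tested cell cycle genes Top2a rose (3.08, 2.94 and 1.45 CPM to 10.4, 7.92 and 6.78 CPM, 1.73 ± 0.51) and none fell. These shares, 11.1% and 7.69%, were also near that of all genes. Of the NDC80 kinetochore complex, Spc25 was the 1 gene tested (217, 233 and 203 CPM in normoxia, 126, 94.4 and 100.1 CPM in OIR). Its partners were near 0, with Ndc80 without a read in normoxia and at 0.222, 0.66 and 2.67 CPM in OIR, and Nuf2 at 0.181, 0 and 0.482 CPM and 0.889, 0.88 and 1.23 CPM.

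**Figure D4:**
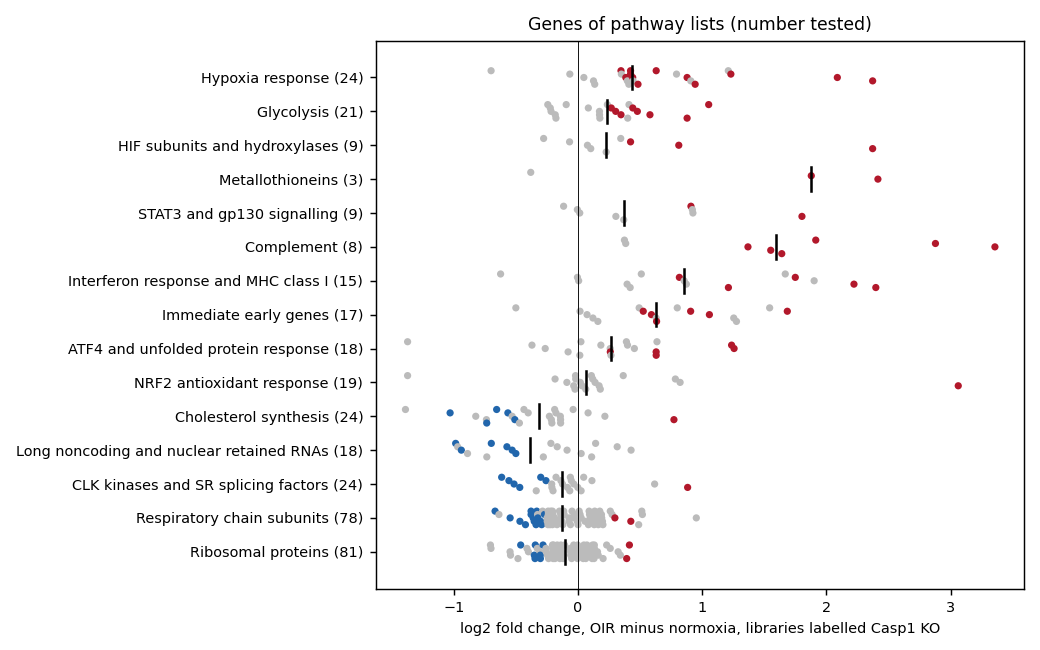
Log2 fold change (OIR minus normoxia, libraries labelled Casp1 KO) of each tested gene in 15 pathway lists, with the number tested in brackets. Red genes rose, blue genes fell, grey genes were not called, and the black bar is the list's median, which is 0.43 for the hypoxia response and -0.32 for cholesterol synthesis.

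Transcripts of tissues next to the retina also moved with OIR. Of 16 lens crystallins tested, 15 rose and none fell (93.8%, against 7.94% of all genes). The median log2 fold change was 0.90, and the summed level was 1149 to 1198 CPM in normoxia and 2060 to 2285 CPM in OIR. Crygb went from 202, 191 and 240.3 CPM to 402, 441 and 343 CPM (0.90 ± 0.09, adjusted p = 1.09e-09), and the γ-crystallins are near-identical, so reads may be split between them. Müller glia and retinal neurons also express some crystallins. Of 4 tested lens genes other than crystallins, the lens filament Bfsp2 rose (5.62, 7.34 and 5.06 CPM to 15.8, 20.9 and 15 CPM, 1.53 ± 0.32, adjusted p = 0.00116) and none fell. Mip, the main lens channel, stood at 0, 0.881 and 0 CPM and 0, 0 and 0.617 CPM. Of 14 tested pigment epithelium genes, 7 rose and none fell (50%). The median was 0.60, and the summed level was 1611 to 1722 CPM in normoxia and 2605 to 2809 CPM in OIR. The isomerase Rpe65 went from 79.4, 114 and 116 CPM to 190.0, 197 and 208 CPM (0.96 ± 0.11, adjusted p = 4.22e-08). The melanin enzyme Dct went from 297, 284 and 286 CPM to 478, 535 and 485 CPM (0.79 ± 0.08, adjusted p = 5.15e-10). Ttr (0.57), Ptgds (0.72), Rgr (0.59), Pmel (0.60) and Stra6 (1.5) were the others. The glial, complement and hypoxia lists moved with these lists, and the part of the lens and pigment epithelium transcripts in those results was not tested.

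Of markers of further tissues, few were called. Of 7 tested genes of the oligodendrocyte and myelin list, Plekhb1 rose (0.64) and none fell, a called share of 14.3%. The summed level of the list went from 618.3 to 634.3 CPM in normoxia to 901.5 to 1065 CPM in OIR. Plekhb1 made up most of that sum, at 562, 566 and 579 CPM in normoxia and 838, 983 and 831 CPM in OIR. Neither Plekhb1 nor the sum is therefore read here as a measure of myelin. Mbp was even at 18.9, 22 and 17.1 CPM and 19.8, 20.2 and 18.5 CPM. The ciliary body list had Wls higher (0.80) of 5 tested, with Zic1 at 0.01 and Pax6 at -0.04. No gene was called among 1 tested of cornea and skin, 2 of skeletal muscle and 4 of red blood cells, where Hbb-bs stood at 100.4, 109.9 and 89.9 CPM and 90.9, 115 and 102 CPM. None of the 15 mitochondrially encoded transcripts sought was in the table. Xist, the female X-inactivation RNA, was even at 349, 349 and 339 CPM and 381, 364 and 398 CPM, while of 4 tested Y chromosome genes Ddx3y fell (75.1, 61.7 and 65.1 CPM to 48.5, 39.1 and 48.1 CPM, -0.58 ± 0.15, adjusted p = 0.0105) and none rose. All 4 had a negative log2 fold change, with a median of -0.65. Each library labelled Casp1 KO thus held transcripts of both sexes, and the part of the sex mix in the results was not tested.

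The change in the libraries labelled Casp1 KO was then set against that in the libraries labelled WT by an interaction term over all 12 libraries. The change differed at an adjusted p under 0.05 for 139 of 14287 genes tested (0.973%), being higher in Casp1 KO for 79 and lower for 60. Leaving out 1 library at a time gave 59 to 523 genes, with 523 when WT OIR replicate 3 was left out, and keeping genes with at least 1 read gave 277. Of the 1050 genes called in Casp1 KO, 790 (75.2%) had the same sign in WT, and 73 had a called interaction. In 62 of those 73 the sign was opposite in WT, and in 8 it was the same with a smaller change in WT. On its own, WT gave 992 called genes, and 308 genes were called in both with the same sign, which is 29.3% of the Casp1 KO list and 31% of the WT list, while 27 were called with opposite signs.

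Mt1 and Mt2 rose in both genotypes and more in Casp1 KO. In WT, Mt1 stood at 136, 136 and 150.4 CPM in normoxia and 286, 241 and 319 CPM in OIR, and the difference of the log2 fold changes was 0.87 ± 0.16 (adjusted p = 0.00386). For Mt2 it was 1.19 ± 0.21 (adjusted p = 0.00221). Slc16a3 was at 108, 118 and 91.9 CPM and 116, 91.2 and 84.6 CPM in WT (interaction 1.18 ± 0.20, adjusted p = 0.00225), where its groups overlapped. Slc2a1 was at 168, 130.2 and 148 CPM and 129, 168 and 183 CPM in WT (0.76 ± 0.18, adjusted p = 0.0336). For Vegfa (interaction 0.09 ± 0.19), Gfap (0.67 ± 0.27), Stat3 (0.01 ± 0.19), Nefl (-0.03 ± 0.13), Nefm (-0.11 ± 0.14) and Calb2 (-0.18 ± 0.14), no difference was called, and the largest of these differences was that of Gfap (adjusted p = 0.294).

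Of the 5 genes with the smallest interaction p-values in each direction, those higher in Casp1 KO come first. Glul fell in WT from 1071, 1166 and 1174 CPM to 640.3, 709.5 and 759 CPM and rose in Casp1 KO, with an interaction of 1.08 ± 0.13 (adjusted p = 3.06e-05). Egr1 fell in WT from 128, 127 and 128 CPM to 67.6, 90.6 and 82.6 CPM and rose in Casp1 KO (1.56 ± 0.19, adjusted p = 3.06e-05). In normoxia, every Casp1 KO library was below every WT library for both genes, and in OIR every Casp1 KO library was above every WT library. The myelin gene Mbp was even in Casp1 KO, and its interaction (1.86 ± 0.25, adjusted p = 9.54e-05) went with the WT normoxia libraries. In WT, Mbp stood at 96.9, 80.5 and 85.6 CPM in normoxia and 21.7, 23.2 and 27.6 CPM in OIR. Ptgds, made by pigment epithelium and glia, rose in Casp1 KO and stood at 675, 655 and 614 CPM and 578, 523 and 505 CPM in WT (0.98 ± 0.13, adjusted p = 8.18e-05).

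In the other direction, Kcnq1ot1 fell in Casp1 KO but rose in WT from 133, 128 and 132 CPM to 235, 279 and 144 CPM (-1.69 ± 0.21, adjusted p = 3.06e-05). Rpgrip1 likewise rose in WT from 496, 544 and 524 CPM to 835, 840.0 and 588 CPM (-1.23 ± 0.15, adjusted p = 3.60e-05). Dmd, the dystrophin of photoreceptor terminals and Müller endfeet, went from 901, 833 and 794 CPM to 573, 546 and 620.1 CPM in Casp1 KO and from 668, 631 and 685 CPM to 929.9, 914 and 729.5 CPM in WT (-0.92 ± 0.14, adjusted p = 2.61e-04). For each of Kcnq1ot1, Rpgrip1 and Dmd, the third WT OIR library was below the other WT OIR libraries. The unnamed genes Gm38609 (-2.13 ± 0.30) and Gm36449 (-1.14 ± 0.19) completed the set. Lens transcripts differed as well, with Cryba1 at 124, 112 and 122 CPM and 126, 112 and 66.3 CPM in WT (1.28 ± 0.22, adjusted p = 0.00179), and the part of lens, myelin and pigment epithelium transcripts in the 139 genes was not tested.

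**Figure D5:**
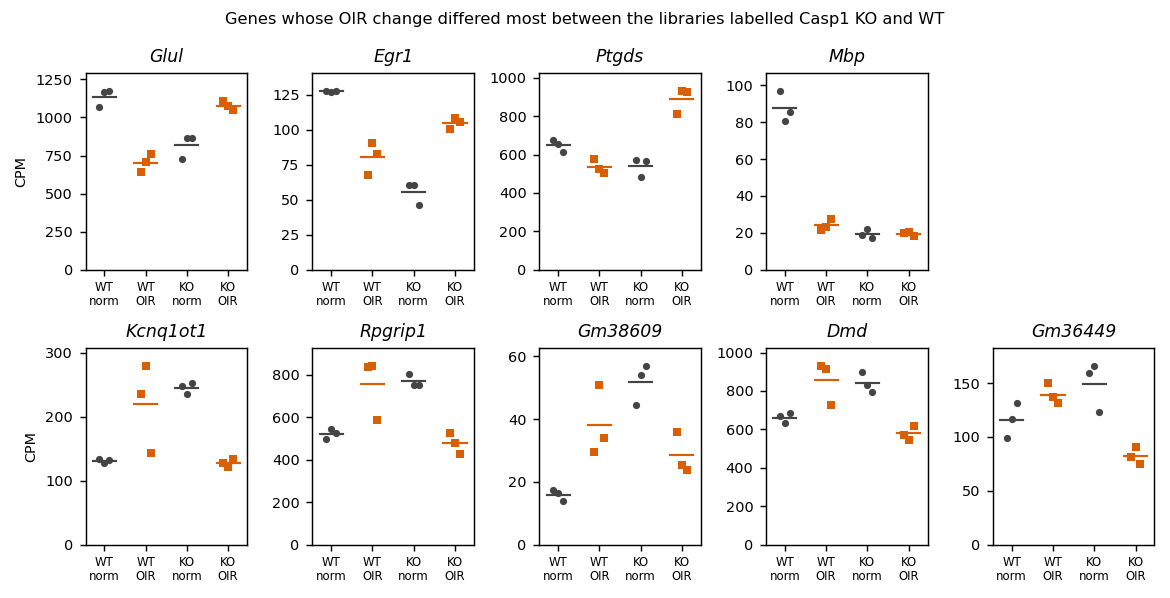
CPM in each of the 12 libraries (3 per group) for 9 of the 10 genes named for their interaction p-values, on axes that start at 0. Grey circles are normoxia and orange squares OIR libraries, lines are group means, and the top row holds genes whose change was higher and the bottom row genes whose change was lower in the libraries labelled Casp1 KO.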

How the data were processed

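Retinal RNA was extracted with TRIzol, made into QuantSeq 3′ mRNA libraries and sequenced as single 75 bp reads. Per the labels, the authors aligned reads to mm10 with STAR 2.7.5a and counted them per gene with HTSeq 0.6.1. The annotation, the strand setting and the treatment of reads with several matches were not given in the sources used here. The deposited counts are whole numbers for 35976 gene symbols in 12 libraries, and 3′ reads are 1 per transcript, so levels in CPM (counts per 1000000 reads) carry no length correction. The members and gene lists used here were chosen with earlier results of these data known.

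The 6 libraries labelled Casp1 KO were fitted with edgeR 4.0.16 (R 4.3.3, limma 3.58.1), with TMM scaling, the filterByExpr filter (minimum count of 10), quasi-likelihood tests and Benjamini-Hochberg adjustment over 13228 genes, with a threshold of 0.05. The interaction was fitted over all 12 libraries and 14287 genes. CPM used effective library sizes of the fit (of the 12-library fit for WT), standard errors are the log2 fold change over the square root of F, and values after ± are standard errors with n = 3 libraries per group. Floors of 3 reads cover counting error only. The 12 highest ranked by p in each direction, among genes that changed by 1 or more on the log2 scale with groups apart, up to 4 called members of each list, 5 interaction genes each way and the proteins of the study were named by rule, and others after their values were seen. A few genes that the rule named are not reported here. No library batch is given in the labels. The fit was tested on simulated data. Alternatives were another filter, scaling, test (DESeq2 1.42.0) or sample set, a replicate block and leaving out each library. Positions are from GENCODE vM21 on GRCm38, the build behind mm10, and promoters from RefSeq on GRCm38.p6.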

Additional observations from a re-analysis of the deposited data

Results flagged for a closer look

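The change between OIR and normoxia differed between the libraries labelled Casp1 KO and WT for 139 genes by an interaction term over all 12 libraries (0.973% of those tested, with 1781 at an unadjusted p under 0.05). Values below are the log2 fold change in Casp1 KO minus that in WT, for the genes named by rule or by list, each at an adjusted p under 0.05 in edgeR's quasi-likelihood test.

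A called difference was found in 6 of 17 tested genes of Müller glia homeostasis and 3 of 14 of pigment epithelium, against 0.973% of all genes. Other lists had such calls too, with 6 of 16 lens crystallins, 4 of 21 amacrine, 3 of 7 myelin, 3 of 18 long noncoding RNA and 3 of 4 Y chromosome genes. There were 0 of 18 in Müller glia reactivity and 0 of 9 in astrocytes, where a share of 0.973% can also leave no call. The called difference was positive for Glul at 1.08, Rlbp1 at 0.982, Clu at 0.87, Apoe at 0.776, Ndrg2 at 0.786, Ptgds at 0.985 and Rpe65 at 0.858. The metallothioneins Mt1 (0.87) and Mt2 (1.19), the transporters Slc16a3 (1.18) and Slc2a1 (0.755), the immediate early gene Egr1 (1.56) and the complex III subunit Uqcrc1 (0.61) were higher too. So were the crystallins Cryba1 (1.28), Crybb1 (1.39) and Crygb (0.834) and the transcription factors Prox1 (0.718) and Lhx4 (0.982). Spc25 fell in both and less in Casp1 KO (0.743). Mbp fell in WT and was not called in Casp1 KO (1.86).

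The difference was negative for Kcnq1ot1 (-1.69), Meg3 (-1.14), Rpgrip1 (-1.23), Dmd (-0.922), Pnisr (-0.965), Hist1h1e (-0.741), Gm38609 (-2.13) and Gm36449 (-1.14). The Y chromosome genes Ddx3y (-1.44) and Uty (-1.43) were also lower. For Meg3 and Pnisr the change in WT was not called. The third WT OIR library, at 764 CPM for Meg3 and 282 CPM for Pnisr, was below every WT normoxia library. In WT, Ddx3y stood at 45.8, 53.5 and 53.8 CPM in normoxia and 59.3, 141 and 76.1 CPM in OIR and Xist at 517, 481 and 463 CPM and 433, 2.92 and 119.7 CPM. These sex-linked transcripts varied among the WT OIR libraries, and the part of a sex difference in the 139 genes was not tested. Of these 30 genes, 18 kept their call in every alternative and none changed sign. Since Casp1 reads went against the labels, which group is the knockout was not checked by these data.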

How the results depend on the processing

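The replicate numbers did not pair the libraries. Deviations of same-numbered libraries from their group means correlated at 0.0355, -0.0195 and -0.0106 in Casp1 KO and -0.0159, -0.0182 and 0.0343 in WT, and a replicate block gave 1015 genes for OIR against normoxia in Casp1 KO (992 shared with the 1050) and 111 for the interaction. Other filters, scalings and tests gave 1002 to 1177 genes for Casp1 KO. Settings on all 6 libraries or more that moved the count by over 1.5 times were a fit shared by all 12 libraries (492), a required change of 1 or more on the log2 scale (228), and selection by unadjusted p under 0.05 and a change of 2 or more on the log2 scale (67). With 1 library left out, where fewer libraries enter the test, there were 677 to 812 genes, a move of over 1.5 times without Casp1 KO normoxia replicate 1 (696) and replicate 3 (677). The interaction count was 277 with genes of at least 1 read, 273 with DESeq2 and 284 with the likelihood ratio test, and 59 to 523 with 1 library left out (62 without WT normoxia replicate 1, 86 without replicate 2 and 85 without replicate 3, 88 without WT OIR replicate 2 and 523 without replicate 3, 64, 59 and 63 without Casp1 KO normoxia replicates 1, 2 and 3, and 74, 66 and 90 without Casp1 KO OIR replicates 1, 2 and 3). The cause was not tested.

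Of 153 named genes called in Casp1 KO, 104 kept their call in every alternative and none changed sign. Calls were lost with all 12 libraries in one fit for Egln1, Egln3, Ldha, Flt1, Col4a1, Fn1, Myh11, Myl9, Slco1a4, Ly6c1, Rlbp1, Sag, Otx2, Gnb3, Pde6h, Syn1, C4b, Hist1h2bc, Top2a, Ndrg2, Igf1r, Snhg11, Fdps, Trib3, Slc3a2, Slc7a5, Clk1, Luc7l3 and Ddx3y among others. DESeq2 lost Bhlhe40, Ldha, Myl9, Syn1 and Wls. Scaling by DESeq2 size factors or library size moved the median log2 fold change by -0.00279 and -0.00457. Genes that were not called changed sign around 0 with 1 library left out, over these ranges on the log2 scale: Acly -0.0916 to 0.0480, Acta1 -0.390 to 0.209, Axin2 -0.120 to 0.0942, Casp1 -0.600 to 0.345, Ccnd1 -0.190 to 0.140, Hbb-bs -0.0484 to 0.119, Il18 -0.389 to 0.107, Kdr -0.131 to 0.0735, Mbp -0.0628 to 0.112, Nfkb1 -0.177 to 0.369, Nkd1 -0.278 to 0.122, Pax6 -0.0877 to 0.00458, Pcna -0.275 to 0.0994, Sod1 -0.0955 to 0.0312, Vcam1 -0.301 to 0.102 and Zic1 -0.218 to 0.273. Of these, Acly (0.00119) also changed sign with genes of at least 1 read, and Ccnd1 (-0.0114) and Zic1 (-0.00338) with the newer quasi-likelihood method. At 3391203 to 5528913 reads per library, genes under about 0.885 CPM could not be measured.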
